A study of Homo sapiens with 27 samples.

Results

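Translational efficiency (TE) is the number of ribosome footprints that a gene yields per unit of its mRNA. The difference in TE between macrophage-like cells given lipopolysaccharide with dexamethasone (LPS+Dex) and cells given vehicle was measured for every gene counted well in both assays, 11944 of the 20453 genes in the count tables. It is the log2 footprint change minus the log2 mRNA change, tested as an assay-by-treatment interaction. The cells were THP-1, a human monocytic leukaemia line, differentiated over 24 h in PMA, a phorbol ester, at 10 ng/ml. The LPS+Dex cells then received both LPS at 100 ng/ml and dexamethasone at 1 µM, and the vehicle cells 0.1% ethanol in PBS, for 3 h in each case. Each group had 5 ribosome profiling libraries and 4 poly(A) RNA-seq libraries, 18 of the 27 in the series, and the other 9 came from cells given LPS alone. Cells of every group had been through PMA, and no group received dexamethasone without LPS. Since nothing in the labels tells separate cultures from repeat preparations, p-values here reflect library-to-library spread, which may be technical.

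Ribosomes shield short stretches of the mRNA they are decoding, and sequencing these footprints counts the ribosomes on each mRNA. When footprints and mRNA move by the same factor TE is unchanged and the mRNA change is passed on, or forwarded, to translation. LPS is recognised by the receptor TLR4, which drives NF-kB, a family of transcription factors, and type I interferon signalling. Dexamethasone binds the glucocorticoid receptor, which induces anti-inflammatory genes and represses many inflammatory ones. Macrophages also tune the translation of mRNAs for feedback inhibitors and cytokines, through their untranslated regions and through mTOR, the growth kinase that acts on mRNAs beginning with a terminal oligopyrimidine (TOP) tract.

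Footprint libraries held 11.5 to 24.4 M counts with LPS+Dex and 15.4 to 24.3 M with vehicle, and mRNA libraries 19 to 21.7 M and 21.8 to 30.7 M. The footprint library numbered 4 stood apart in every treatment, at a root mean square log2 distance of 0.55 to 0.66 from its group, while the other footprint libraries lay at 0.19 to 0.28 and the mRNA libraries at 0.12 to 0.32. Many results are given both with and without the 3 footprint libraries of that number, but not every gene's value is. Some values given only with all libraries also moved, as for LRP1 (TE difference 1.57, and 1.35 without them). The 44 called genes whose values are given below were also called without the libraries numbered 4. Markers of macrophages and monocytes summed to 7309 to 21684 CPM (counts scaled to 1000000 per library, computed here) in LPS+Dex footprints and 7909 to 17176 CPM in vehicle footprints, with the highest sum of each group in library 4, and to 4924 to 5210 CPM and 6329 to 6598 CPM in mRNA. T and B cell markers summed to at most 1.24 CPM in LPS+Dex footprints and 1.05 CPM in vehicle footprints. In bulk libraries such as these, fewer cells of a kind and less RNA per cell cannot be told apart.

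Many genes were called in mRNA and in footprints, and fewer in TE. Of the 11944 genes 7344 (61.5%) were called in mRNA, with 3547 (29.7%) higher and 3797 (31.8%) lower in LPS+Dex cells, and 5570 (46.6%) in footprints, with 2993 (25.1%) higher and 2577 (21.6%) lower. A call is an adjusted p under 0.05 by edgeR's quasi-likelihood test with Benjamini-Hochberg adjustment over all genes. In TE 231 genes were called, 1.93% of those tested, of which 158 (1.32%) were higher and 73 (0.611%) lower. Across genes the log2 changes in mRNA and in footprints correlated at Pearson's r = 0.903, a description over genes that share libraries. The median log2 TE difference over all genes was 0.04, and called values ran from -2.81 to 8.35.

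The number of TE calls depended on how the replicates were treated and on the test. By DESeq2's Wald test there were 467, and by limma voom with quality weights 2543 (1347 higher and 1196 lower). Without the footprint libraries numbered 4 there were 1020 calls (8.54%), 532 higher (4.45%) and 488 lower (4.09%), and a block on replicate number within each assay gave 1453 (12.2%), 859 higher (7.19%) and 594 lower (4.97%). Of the 231 genes 228 were called in the same direction without the libraries numbered 4, all but ERV3-1, RTL5 and ZNF547, and all 231 were with the block. Of the 231 genes 161 averaged 5 CPM or more in footprints and in mRNA, and the 10 largest rises and 10 largest falls among these are described below (gene coordinates are those of RefSeq, GRCh38.p14). The next values in that order were 1.57 and -1.25.

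Sorted by their 3 tests, 4422 genes were forwarded, meaning that mRNA and footprints were called with one sign while TE was not called. Another 140 were buffered, with TE and mRNA called in opposite directions, 54 were intensified, with all tests called in one direction, and 37 were exclusive, with footprints and TE called and mRNA not. A forwarded gene is one whose TE was not called, not one whose TE was shown to be unchanged. IFIT1 (TE difference -2.14 ± 0.85), ISG15 (-1.64 ± 0.50) and TNF (1.23 ± 0.79, SE) counted as forwarded. Of the 158 genes with higher TE the mRNA was called lower in 98, higher in 41 and not called in 19. Of the 73 with lower TE it was called higher in 42, lower in 13 and not called in 18. Buffering was the most common class among called genes in both directions (98 of 158 and 42 of 73). Because the mRNA change is subtracted to give TE, an error in it enters TE with the opposite sign. Opposite signs are thereby favoured, and how many buffered calls arose this way was not tested. Without the libraries numbered 4 the counts were 569 buffered, 212 intensified and 238 exclusive.

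**Figure D1:**
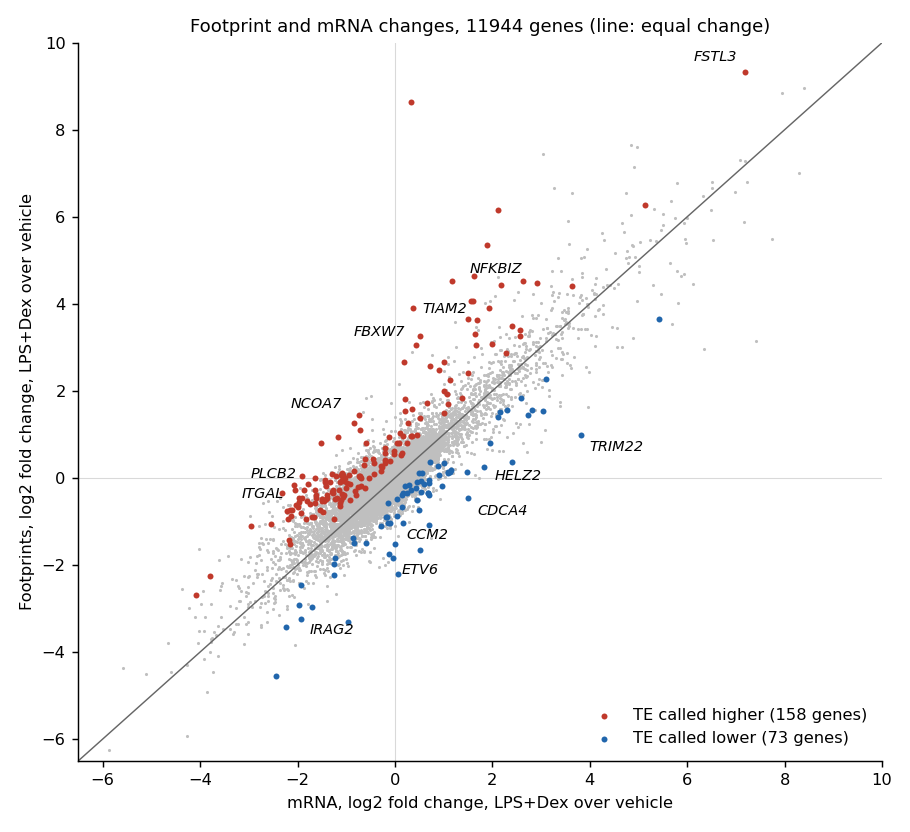
Log2 fold change in footprints (vertical axis) against that in mRNA (horizontal axis), LPS+Dex over vehicle, for 11944 genes. Grey points are genes not called in TE, red points the 158 called higher, blue points the 73 called lower, and the line marks equal change; red points to the left of 0 and blue points to the right of 0 are mostly the buffered genes.

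Some genes of NF-kB signalling and cell survival gained footprints beyond their mRNA. Of 38 tested genes of NF-kB subunits, feedback and survival, 5 were called higher in TE and 0 lower, 13.2% of the list against 1.32% of all genes, while 34 rose in mRNA and 33 in footprints. The list had 7 higher and 0 lower (4.45% and 4.09% of all genes) without the libraries numbered 4, and 9 and 0 (7.19% and 4.97% of all genes) with the block. The count fell to 3 without any one of mRNA LPS+Dex libraries 2, 3 and 4, mRNA vehicle library 2, LPS+Dex footprint libraries 1 and 2 and vehicle footprint library 1, and with only the 18 compared libraries. The largest rise was that of NFKBIZ (IκBζ, a nuclear partner of NF-kB that is needed for a subset of its secondary response genes; ENSG00000144802, chr3:101827990-101861022). Its footprints were 376, 350, 337, 319 and 354 CPM in the LPS+Dex libraries, against 16.6, 17.2, 17.1, 14.8 and 11.8 CPM in the vehicle libraries. Its mRNA was 280, 254, 270 and 231 CPM with LPS+Dex, against 31.1, 41.8, 37.9 and 27.4 CPM with vehicle. Neither assay showed overlap between the groups, and the mRNA gap was the smaller one. The log2 change was 4.49 ± 0.14 in footprints and 2.91 ± 0.15 in mRNA, a TE difference of 1.58 ± 0.19 (SE, adjusted p = 2.62e-05) that was 1.58 without the libraries numbered 4.

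REL, the NF-kB subunit c-Rel, had a TE difference of 1.09 ± 0.23 (adjusted p = 0.0112), with footprints of 200, 204, 181, 249 and 217 CPM in the LPS+Dex libraries, against 22.2, 26.3, 24.5, 27.4 and 23.8 CPM in the vehicle libraries. Its mRNA was 70.6, 61.8, 67.2 and 57.2 CPM with LPS+Dex, against 11.8, 14.5, 21.4 and 16.6 CPM with vehicle. CFLAR, the caspase-8 inhibitor cFLIP, had 0.58 ± 0.13 (adjusted p = 0.0133), and MAP3K8, the kinase TPL2 that links NF-kB to ERK signalling, 0.62 ± 0.15 (adjusted p = 0.0280). TNFAIP3, the ubiquitin-editing inhibitor A20, had 0.69 ± 0.18 (SE, adjusted p = 0.0449), close to the threshold. It lost its call without any one of 12 libraries, with adjusted p up to 0.107, and kept it without mRNA vehicle library 1 or 4, LPS+Dex footprint library 4, or vehicle footprint library 2, 3 or 4. MAP3K8 lost its call without mRNA LPS+Dex library 2, 3 or 4, mRNA vehicle library 2 or 4, LPS+Dex footprint library 1 or 2 or vehicle footprint library 1, with adjusted p up to 0.0614. REL, CFLAR and MAP3K8 were named because the count was small. NFKBIA, the inhibitor IκBα, was forwarded: it rose by 2.87 ± 0.12 in mRNA and 2.82 ± 0.11 in footprints, with a TE difference of -0.05 ± 0.16 (SE, adjusted p = 0.913). PTGS2, the inducible cyclooxygenase, had 1.62 ± 0.62 (adjusted p = 0.189), and 1.25 (adjusted p = 0.0135) without the libraries numbered 4.

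Genes that bind AU-rich elements or carry out mRNA decay showed a similar count. Of 34 tested, 5 were called higher in TE and 0 lower, 14.7% of the list beside 1.32% of all genes called higher. There were 10 higher and 1 lower both without the libraries numbered 4, where 4.45% of all genes were called higher, and with the block, where 7.19% were. Leaving out 1 library gave 3 to 6 higher, with 3 for mRNA LPS+Dex libraries 1, 2 and 4, mRNA vehicle libraries 3 and 4, LPS+Dex footprint libraries 1, 2 and 3 and vehicle footprint libraries 2, 3 and 5. ZC3H12C, a relative of the endonuclease Regnase-1 (ENSG00000149289, chr11:110093392-110171841), had footprints of 477, 482, 423, 488 and 449 CPM in the LPS+Dex libraries, against 74.2, 91.2, 82.6, 103 and 62.6 CPM in the vehicle libraries. Its mRNA was 120, 90.8, 122 and 78.1 CPM with LPS+Dex, against 32.2, 45.1, 85.4 and 57.6 CPM with vehicle, with overlap between the groups. The TE difference was 1.59 ± 0.34 (SE, adjusted p = 0.0120), and 1.65 without the libraries numbered 4. ZC3H12A, Regnase-1 itself, which cuts stem-loops in inflammatory mRNAs, rose by 2.57 ± 0.10 in mRNA and 3.39 ± 0.10 in footprints, with footprints of 563, 545, 582, 549 and 510 CPM in the LPS+Dex libraries, against 57.5, 54.1, 52.2, 57.7 and 40.6 CPM in the vehicle libraries. Its TE difference was 0.82 ± 0.14 (SE, adjusted p = 0.00168).

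The other members called were RC3H1 (Roquin-1, which binds the same stem-loops) at 0.89 ± 0.23 (adjusted p = 0.0449), PAN2 (a poly(A) nuclease) at 1.00 ± 0.15 (SE, adjusted p = 5.00e-04) and ZFP36L1 (an AU-rich element binding protein) at 0.72 ± 0.18 (adjusted p = 0.0423), all 3 named because the count was small. RC3H1 kept its call only without mRNA LPS+Dex library 3, mRNA vehicle library 1 or 2, LPS+Dex footprint library 4 or vehicle footprint library 4 (adjusted p up to 0.130). ZFP36L1 kept its call only without mRNA LPS+Dex library 3, mRNA vehicle library 1 or 2, LPS+Dex footprint library 5 or vehicle footprint library 1 or 4 (adjusted p up to 0.118). PAN2 and ZFP36L1 were buffered. PAN2 mRNA was 59.6, 70.4, 67.6 and 68.1 CPM with LPS+Dex, against 114, 142, 106 and 113 CPM with vehicle, and its footprints overlapped, at 15.1, 13.5, 15, 12 and 13.1 CPM in the LPS+Dex libraries, against 13.6, 10.3, 14.2, 9.78 and 13.1 CPM in the vehicle libraries. ZFP36, tristetraprolin, rose by 1.21 ± 0.12 in mRNA with a TE difference of 0.29 ± 0.27 (SE, adjusted p = 0.642). EDC4, a decapping scaffold, was the member called lower without the libraries numbered 4, at -0.35 (adjusted p = 0.0173), and had -0.35 ± 0.10 (adjusted p = 0.0541) with all libraries.

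The largest rise that the naming rule admits was that of FBXW7, the substrate-binding subunit of a ubiquitin ligase that marks MYC, cyclin E and other growth regulators for degradation (ENSG00000109670, chr4:152320544-152536092). Its footprints were 10.4, 10.9, 11.3, 23.7 and 8.18 CPM in the LPS+Dex libraries, against 1.37, 1.41, 1.46, 1.51 and 1.90 CPM in the vehicle libraries. Its mRNA was 39.1, 43.4, 43 and 36 CPM with LPS+Dex, against 26.2, 30.4, 31.9 and 30.3 CPM with vehicle. Both assays separated the groups, but mRNA by a log2 change of 0.44 ± 0.10 and footprints by 3.06 ± 0.31. The TE difference was 2.61 ± 0.34 (SE, adjusted p = 5.00e-05), and 2.26 without the libraries numbered 4, of which the LPS+Dex one held the highest value. Setting LPS-treated cells between the ends, the LPS step was 0.53 ± 0.34 and the dexamethasone step 2.09 ± 0.33 (SE).

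Other genes with higher TE rose in mRNA as well, and so were intensified. FSTL3, a secreted binder of activin and a glucocorticoid target, had footprints of 874, 783, 864, 1760 and 867 CPM in the LPS+Dex libraries, against 1.27, 2.02, 1.42, 2.19 and 1.17 CPM in the vehicle libraries. Its mRNA was 523, 542, 561 and 590 CPM with LPS+Dex, against 4.02, 3.62, 3.29 and 4.20 CPM with vehicle. Both assays moved strongly, by 9.34 ± 0.51 in footprints and 7.20 ± 0.28 in mRNA, and the TE difference was 2.15 ± 0.50 (SE, adjusted p = 0.0231), 1.97 without the libraries numbered 4. It lost its call without mRNA LPS+Dex library 2, mRNA vehicle library 4 or vehicle footprint library 1, at adjusted p up to 0.0542. TIAM2, an activator of the GTPase Rac, had 16.7 ± 7.28 CPM with LPS+Dex and 1.38 ± 0.423 CPM with vehicle in footprints (SD, n = 5 each) and 31.1 ± 0.568 CPM with LPS+Dex and 9.70 ± 1.32 CPM with vehicle in mRNA (SD, n = 4 each), a TE difference of 1.95 ± 0.33 (SE, adjusted p = 0.00146). DUSP16, a phosphatase of JNK, had 3.15 ± 0.390 CPM with LPS+Dex and 0.204 ± 0.0699 CPM with vehicle in footprints and 6.23 ± 0.779 CPM with LPS+Dex and 1.62 ± 0.279 CPM with vehicle in mRNA, a TE difference of 1.97 ± 0.33 (SE, adjusted p = 0.00128). RASSF5, an effector of the adhesion GTPase Rap1 named after its values were seen, had 382 ± 49.3 CPM with LPS+Dex and 46.2 ± 3.56 CPM with vehicle in footprints and 135 ± 24.3 CPM with LPS+Dex and 42.7 ± 10.7 CPM with vehicle in mRNA, a TE difference of 1.38 ± 0.21 (SE, adjusted p = 5.00e-04). For these 3 genes neither assay showed overlap between the groups. DUSP16 was thinly counted, averaging 1.68 CPM in footprints and 3.93 CPM in mRNA over both groups. That is under the 5 CPM required of genes named by size.

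CCNE2, cyclin E2 of the cell cycle list, had a TE difference of 0.98 ± 0.23 (SE, adjusted p = 0.0241) on an mRNA rise of 1.00 ± 0.18. Its call was lost without mRNA LPS+Dex library 2 or 4, mRNA vehicle library 3 or 4, or vehicle footprint library 1, at adjusted p up to 0.0766. NFAT5, the transcription factor of osmotic stress, also named after its values were seen, was exclusive: its mRNA was 64.9, 60.9, 63 and 49.5 CPM with LPS+Dex, against 35.4, 57.7, 61.3 and 51.2 CPM with vehicle, with overlap, and its footprints 41.4, 41, 40.7, 51.9 and 49.4 CPM in the LPS+Dex libraries, against 12.5, 13.9, 17.3, 22.6 and 11.8 CPM in the vehicle libraries, without overlap. Its TE difference was 1.32 ± 0.24 (SE, adjusted p = 0.00279).

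**Figure D2:**
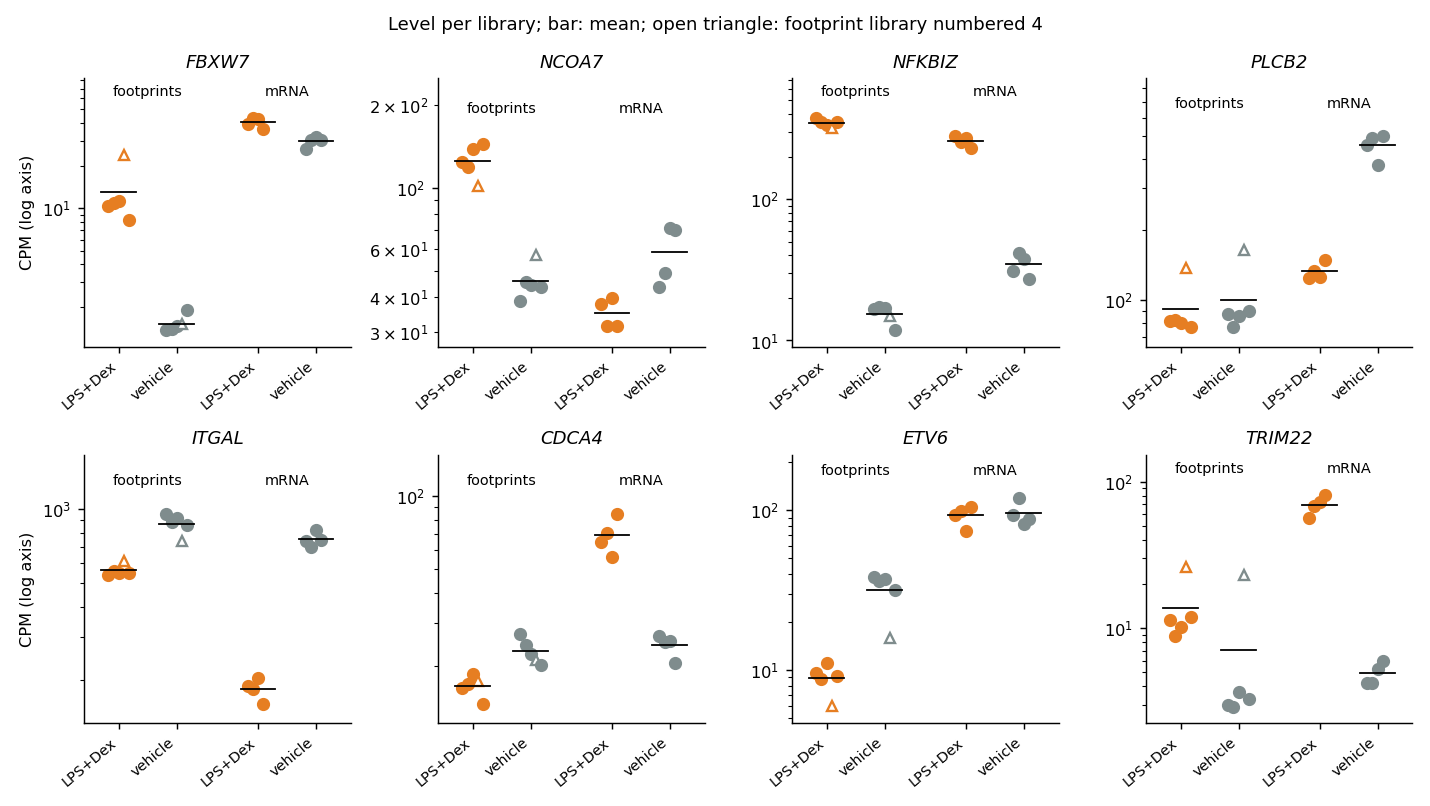
Level of 8 genes in each library in CPM (log axis), footprints on the left and mRNA on the right of each panel, LPS+Dex in orange and vehicle in grey. Bars are means, and open triangles mark the footprint libraries numbered 4, which lie above the rest of both groups for PLCB2 and TRIM22.

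A larger group had higher TE while mRNA fell, with footprints that fell by less, were not called or, in few genes, rose. Among all genes called higher in TE mRNA was called lower in 98. Footprints of all 158 genes called higher in TE were called lower in 42, not called in 48 and called higher in 68. These 68 include the 41 intensified and 19 exclusive genes with higher TE, so few of the 98 had footprints called higher. NCOA7 and SPARCL1 were among those few. NCOA7, a nuclear receptor coactivator (ENSG00000111912, chr6:125781115-125932034), had footprints of 124, 119, 138, 101 and 144 CPM in the LPS+Dex libraries, against 38.9, 45.5, 44.4, 56.7 and 43.5 CPM in the vehicle libraries. Its mRNA was 37.9, 31.5, 39.6 and 31.4 CPM with LPS+Dex, against 43.5, 48.8, 71.4 and 70.3 CPM with vehicle. The groups did not overlap in either assay and lay in opposite orders, at 1.45 ± 0.14 in footprints and -0.74 ± 0.18 in mRNA. The TE difference was 2.19 ± 0.23 (SE, adjusted p = 3.09e-06), 2.33 without the libraries numbered 4. SPARCL1, a secreted matricellular protein, did the same, with 17 ± 5.93 CPM with LPS+Dex and 9.78 ± 1.73 CPM with vehicle in footprints (SD, n = 5 each), 3.19 ± 0.387 CPM with LPS+Dex and 9.09 ± 0.848 CPM with vehicle in mRNA (SD, n = 4 each) and a TE difference of 2.31 ± 0.30 (SE, adjusted p = 6.64e-05).

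In PLCB2, the signalling enzyme phospholipase C beta 2, mRNA was 124, 133, 126 and 149 CPM with LPS+Dex, against 458, 491, 378 and 501 CPM with vehicle. Its footprints were 81.3, 82.5, 80.4, 137 and 77 CPM in the LPS+Dex libraries, against 87.2, 76.6, 85.4, 163 and 89.8 CPM in the vehicle libraries, with library 4 the highest in both groups and the remaining libraries overlapping. The mRNA change was -1.78 ± 0.09, the footprint change -0.13 ± 0.25, which was not called (adjusted p = 0.706), and the TE difference 1.65 ± 0.30 (SE, adjusted p = 0.00315). LTBP2, a matrix protein of the latent TGF-beta binding family, and the transporter ABCC6 had the same form, with mRNA changes of -2.04 ± 0.11 and -2.31 ± 0.10, footprint changes of -0.27 ± 0.28 and -0.34 ± 0.40 that were not called, and TE differences of 1.77 ± 0.35 (SE, adjusted p = 0.00575) and 1.98 ± 0.47 (SE, adjusted p = 0.0268). The call of ABCC6 was lost without mRNA LPS+Dex library 1, 2 or 3, mRNA vehicle library 4 or vehicle footprint library 1, at adjusted p up to 0.0600.

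ITGAL, ITGA4 and LRP1 were buffered, and were named with ITGAM after their values were seen. ITGAL, the alpha chain of the integrin LFA-1 (ENSG00000005844, chr16:30472742-30523185), had mRNA of 189, 184, 205 and 161 CPM with LPS+Dex, against 740, 703, 824 and 751 CPM with vehicle. Its footprints were 539, 561, 548, 614 and 550 CPM in the LPS+Dex libraries, against 952, 887, 922, 743 and 860 CPM in the vehicle libraries. Both fell without overlap, mRNA by more, at -2.03 ± 0.08 and -0.63 ± 0.08, a TE difference of 1.39 ± 0.12 (SE, adjusted p = 5.75e-08). ITGA4, the alpha chain of VLA-4, fell by 2.16 in mRNA and 0.74 in footprints on the log2 scale, with a TE difference of 1.43 ± 0.23 (SE, adjusted p = 8.53e-04). LRP1, an endocytic receptor, had an mRNA change of -1.86 ± 0.16, footprints that were not called (-0.29 ± 0.30) and a TE difference of 1.57 ± 0.38 (SE, adjusted p = 0.0307), a call that was lost without any one of 9 libraries: mRNA LPS+Dex 1, 2 or 4, mRNA vehicle 3 or 4, or vehicle footprints 1, 2, 3 or 5 (adjusted p up to 0.0805). ITGAM, the alpha chain of Mac-1, was not called with all libraries, at 1.35 ± 0.51 (adjusted p = 0.186), where LPS+Dex library 4 held 1081 CPM and vehicle library 4 808 CPM, and 1.18 (adjusted p = 9.53e-08) without those libraries.

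Fewer genes of good depth lost TE. CDCA4, a nuclear regulator of cell division (ENSG00000170779, chr14:105009573-105021083), had footprints of 16.3, 16.8, 18.6, 17.4 and 14 CPM in the LPS+Dex libraries, against 27, 24.5, 22.4, 21.1 and 20.2 CPM in the vehicle libraries. Its mRNA was 64.6, 70.7, 56 and 84.7 CPM with LPS+Dex, against 26.6, 25.1, 25.4 and 20.5 CPM with vehicle. Footprints were lower and mRNA higher in every LPS+Dex library than in any vehicle library, at -0.47 ± 0.11 and 1.5 ± 0.13. The TE difference of -1.97 ± 0.17 (SE, adjusted p = 8.75e-08) was the most precise of the 10 falls, and was -2.04 without the libraries numbered 4.

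ETV6, a transcriptional repressor of the ETS family (ENSG00000139083, chr12:11649674-11895377), was exclusive. Its footprints were 9.66, 8.83, 11.1, 5.95 and 9.22 CPM in the LPS+Dex libraries, against 38.3, 36, 37.4, 15.9 and 31.7 CPM in the vehicle libraries. Its mRNA was 93.3, 98.8, 74.8 and 105 CPM with LPS+Dex, against 94, 120, 82 and 88.7 CPM with vehicle. The groups overlapped in mRNA and not in footprints, and the TE difference was -1.79 ± 0.27 (SE, adjusted p = 4.07e-04). CCM2, a scaffold of cell junction signalling, had 5.07 ± 1.07 CPM with LPS+Dex and 14.6 ± 4.74 CPM with vehicle in footprints (SD, n = 5 each), 100 ± 8.74 CPM with LPS+Dex and 99.5 ± 16.4 CPM with vehicle in mRNA (SD, n = 4 each) and a TE difference of -1.54 ± 0.26 (SE, adjusted p = 0.00128). IRAG2, a protein of the endoplasmic reticulum membrane, and RASGRP3, an activator of Ras, fell in mRNA by 1.93 and 1.71 and more in footprints, with TE differences of -1.33 ± 0.26 (SE, adjusted p = 0.00582) and -1.26 ± 0.23 (SE, adjusted p = 0.00234). PFKFB4, which sets the level of a glycolytic activator, did likewise, with a TE difference of -0.96 ± 0.19 (SE, adjusted p = 0.00592), whereas its relative PFKFB3 had 0.62 ± 0.16 (SE, adjusted p = 0.0467). The call of PFKFB3 was kept only without mRNA LPS+Dex library 3, mRNA vehicle library 2 or vehicle footprint library 1 or 2, and reached adjusted p = 0.129.

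MAP1LC3A, an LC3 protein of autophagosomes, rose in mRNA by 2.73 ± 0.16 and in footprints by 1.44 ± 0.27, a TE difference of -1.29 ± 0.34 (SE, adjusted p = 0.0491). It kept its call only without LPS+Dex footprint library 3 or 4 or vehicle footprint library 4, and without each of the other 15 libraries its adjusted p rose to at most 0.134. AHNAK, a very large scaffold protein named after its values were seen, had a TE difference of -1.04 ± 0.27 (SE, adjusted p = 0.0407), a call likewise lost without any one of 15 libraries (adjusted p up to 0.0844) and kept without LPS+Dex footprint library 4 or vehicle footprint library 3 or 5.

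**Figure D3:**
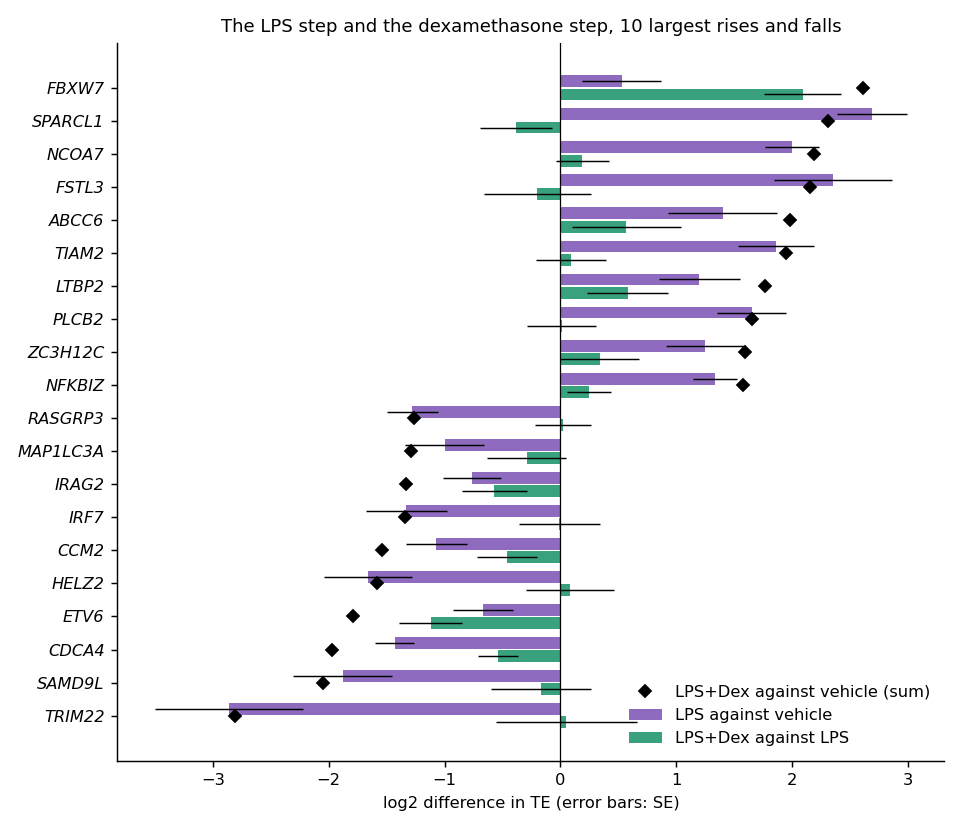
Log2 TE difference of the 10 largest rises and 10 largest falls, split into the step from vehicle to LPS (purple) and the step from LPS to LPS+Dex (green), with SE bars, and their sum (diamonds). The dexamethasone step is the larger one for FBXW7 and ETV6, and the LPS step for the other 18 genes; both steps share the LPS libraries.

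With LPS-treated cells placed between the ends, the LPS step was the larger one for most called genes. This held in 131 of the 158 genes with higher TE and in 64 of the 73 with lower TE. Its median was 0.80 and -0.74, and that of the dexamethasone step 0.19 and -0.10. The steps add up to the whole and share libraries with it, so they describe it and do not test it. The same share was not counted over all genes, so a larger LPS step is not shown to be particular to called genes. FBXW7 and ETV6 (LPS step -0.67 ± 0.26, dexamethasone step -1.12 ± 0.27) were the exceptions among the 20 genes named by size, and AHNAK had steps of 0.12 ± 0.27 and -1.17 ± 0.27.

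Interferon response genes had the lowest TE median of the gene lists with all libraries, and not without the libraries numbered 4, where mitochondrially encoded proteins (-0.41, 9 genes) and epithelial and fibroblast markers (-0.58, 2 genes) lay lower. No other list had a median that moved by as much when those libraries were left out. Of 62 tested, 59 were called higher in mRNA (29.7% of all genes) and 1 lower, and 40 higher (25.1% of all genes) and 2 lower in footprints. In TE 4 were called lower and 0 higher, against 0.611% of all genes called lower, and the median log2 difference was -0.69 beside 0.04 for all genes. Without the libraries numbered 4 these were 20 lower, 1 higher and a median of -0.33, and with the block 21, 0 and -0.66. Of all genes 4.09% were called lower and 4.45% higher without those libraries, and 4.97% and 7.19% with the block. In vehicle footprint library 4 the list lay a median of 1.15 above the other vehicle libraries on the log2(CPM + 1) scale, and in LPS+Dex library 4 it lay at -0.07. Leaving out 1 library gave 2 to 8 lower and 0 higher, with 8 for LPS+Dex footprint library 4 and 2 for mRNA LPS+Dex libraries 2, 3 and 4, all 4 mRNA vehicle libraries and LPS+Dex footprint libraries 1, 2, 3 and 5. With only the 18 compared libraries 1 was lower.

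TRIM22, an antiviral ubiquitin ligase (ENSG00000132274, chr11:5689790-5710863), had the largest fall. Its mRNA was 56.2, 68, 72.5 and 80.8 CPM with LPS+Dex, against 4.23, 4.21, 5.27 and 5.93 CPM with vehicle. Its footprints were 11.3, 8.87, 10.1, 26.2 and 11.9 CPM in the LPS+Dex libraries, against 2.97, 2.91, 3.67, 22.9 and 3.26 CPM in the vehicle libraries. Apart from library 4 the groups were separate in both assays, with the wider gap in mRNA. The TE difference was -2.81 ± 0.64 (SE, adjusted p = 0.0201), and -2.11 (adjusted p = 1.21e-07) without the libraries numbered 4. SAMD9L, an antiviral restriction factor, had mRNA of 240, 280, 272 and 334 CPM with LPS+Dex, against 48, 55.8, 53.4 and 54.3 CPM with vehicle. Its footprints were 23, 22.6, 22.3, 39.3 and 28.7 CPM in the LPS+Dex libraries, against 11.9, 13.3, 12.8, 54.3 and 14.3 CPM in the vehicle libraries, again with library 4 the highest of each group. Its TE difference was -2.05 ± 0.43 (SE, adjusted p = 0.0112), and -1.54 without those libraries.

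IRF7, the transcription factor of interferon amplification, had a TE difference of -1.34 ± 0.35 (SE, adjusted p = 0.0473) and HERC6, named because the count was small, -1.25 ± 0.32 (SE, adjusted p = 0.0426). Without the libraries numbered 4 the values of IRF7 and HERC6 were -1.26 and -0.78. IRF7 kept its call only without mRNA LPS+Dex library 1, LPS+Dex footprint library 4 or vehicle footprint library 2 or 3, with adjusted p up to 0.137. HERC6 lost its call without any one of the 8 mRNA libraries or of LPS+Dex footprint libraries 1, 2, 3 and 5, with adjusted p up to 0.0951. HELZ2, an interferon-induced helicase outside the list, had -1.58 ± 0.38 (SE, adjusted p = 0.0282). It lost its call without mRNA LPS+Dex library 2 or 4, mRNA vehicle library 4 or LPS+Dex footprint library 1, 2 or 5 (adjusted p up to 0.0724). With only the 18 compared libraries in the fit, TRIM22, SAMD9L, IRF7, HERC6 and HELZ2 were not called.

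For other antiviral genes the value moved with library 4. IFIT1, a sensor of viral RNA, had footprints of 111, 117, 121, 61.6 and 138 CPM in the LPS+Dex libraries, against 1.88, 2.66, 2.47, 39.6 and 2.59 CPM in the vehicle libraries. Its mRNA was 119, 113, 129 and 147 CPM with LPS+Dex, against 1.61, 2.44, 2.51 and 3.19 CPM with vehicle. Vehicle footprint library 4 stood above the other vehicle libraries. The TE difference was -2.14 ± 0.85 (SE, adjusted p = 0.209) with it and -0.04 (adjusted p = 0.914) without the libraries numbered 4. The GTPase MX1, named after its values were seen, had footprints of 111, 111, 139, 174 and 152 CPM in the LPS+Dex libraries, against 14.4, 12, 12.8, 169 and 14.9 CPM in the vehicle libraries, and its TE difference was -2.33 ± 0.76 (SE, adjusted p = 0.119), and -0.74 (adjusted p = 0.0157) without those libraries. STAT2, which carries the interferon signal to the nucleus, had the same value both ways, at -1.0 ± 0.29 (SE, adjusted p = 0.0724) with all libraries and -0.99 (adjusted p = 5.00e-05) without them. DHX58, a regulator of RNA sensing, was the member called higher without those libraries, at 0.90 (adjusted p = 1.19e-05), and had 0.62 ± 0.29 (adjusted p = 0.316) with all. IFIT genes share reads with close paralogs and are uncertain.

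**Figure D4:**
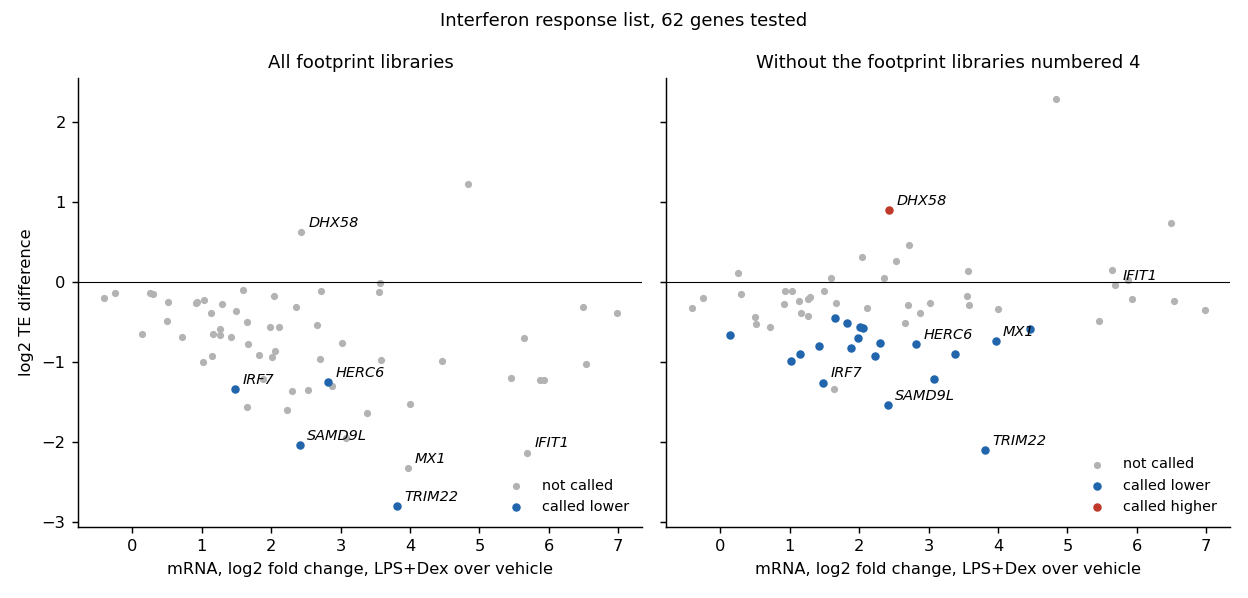
Log2 TE difference (vertical axis) against the log2 mRNA change (horizontal axis), LPS+Dex over vehicle, for the 62 tested genes of the interferon list. The left panel uses all footprint libraries, with 4 genes called lower, and the right panel leaves out those numbered 4, with 20 called lower and 1 higher; IFIT1 and MX1 move towards 0.

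Promoters of the interferon list were searched for the motif bound by interferon-activated factors. The motif searched was GAAANNGAAA on either strand, within 250 bases before to 50 after each annotated gene start (RefSeq, GRCh38.p14). It was found at 31 of 48 list genes with a promoter in the table, in 396 of 9720 genes tested (4.07%) and in 3.57% of all promoters listed. Among the list genes called lower without the libraries numbered 4 it was found in 7 of 15, and in 24 of the other 33. Of the 73 genes with lower TE 58 had a promoter and 2 of them the motif. The sites of 3 list genes, picked as examples of the match, show it in capitals, each as read along the gene's own strand (chr1:1013374-1013403, plus strand; chr12:112938321-112938350, plus strand; chr1:27672329-27672358, minus strand).
ISG15: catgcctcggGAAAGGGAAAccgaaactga
OAS3: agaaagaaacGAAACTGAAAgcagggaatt
IFI6: ggagagagggGAAAATGAAActctgcagag

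ISG15, a ubiquitin-like antiviral protein, had a TE difference of -1.64 ± 0.50 (SE, adjusted p = 0.0954), and -0.90 (adjusted p = 0.0193) without the libraries numbered 4. OAS3, which makes the second messenger that activates RNase L, had -1.22 ± 0.53 (adjusted p = 0.266), and -0.82 (adjusted p = 0.0450) without them. IFI6, an interferon-induced inhibitor of apoptosis, had -0.69 ± 0.98 (adjusted p = 0.783), and -0.80 (adjusted p = 0.00797). A match describes these letters and not the binding of a factor.

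Most tested targets of the glucocorticoid receptor changed in mRNA and in footprints. Of 51 tested glucocorticoid receptor targets mRNA rose for 36 and fell for 8, and footprints rose for 33 and fell for 3. In TE 3 were called higher and 0 lower, 5.88% of the list beside 1.32% of all genes called higher. There were 5 and 1 without the libraries numbered 4 (4.45% and 4.09% of all genes), and 7 and 2 with the block (7.19% and 4.97%). Without mRNA LPS+Dex library 2 or vehicle footprint library 1 there were 1 and 0. FKBP5, a chaperone that restrains the receptor, had footprints of 2082, 2179, 2145, 1677 and 2181 CPM in the LPS+Dex libraries, against 22.9, 25.6, 24.2, 14.4 and 28.6 CPM in the vehicle libraries. Its mRNA was 1828, 1568, 1795 and 1431 CPM with LPS+Dex, against 16.3, 14.4, 24.2 and 27.3 CPM with vehicle. The assays matched closely, at log2 changes of 6.47 ± 0.29 and 6.32 ± 0.36, and the TE difference was 0.14 ± 0.39 (SE, adjusted p = 0.904). TSC22D3 (GILZ), which restrains NF-kB, rose by 3.85 ± 0.17 in mRNA with a TE difference of -0.11 ± 0.22 (SE, adjusted p = 0.855), and the phosphatase DUSP1 by 4.41 ± 0.15 with 0.03 ± 0.52 (SE, adjusted p = 0.987). The 3 targets called in TE were FSTL3, TNFAIP3, which is also on the NF-kB list, and STAB1, a scavenger receptor of resting macrophages. STAB1 mRNA fell by 1.09 on the log2 scale, and its TE difference was 1.2 ± 0.26 (SE, adjusted p = 0.0118). In that order the LPS steps of the 3 genes were 2.35, 0.69 and 1.61, and their dexamethasone steps -0.20, 0.01 and -0.41.

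Of 44 tested cytokine and chemokine genes 32 were called higher and 4 lower in mRNA, and 30 higher and 1 lower in footprints. In TE 0 of the 44 were called by edgeR with all libraries, where 1.93% of all genes were. At an unadjusted p under 0.05 there were 5 of the 44 beside 1817 of the 11944 genes, and by DESeq2 0 of the 44. There were 4 higher and 1 lower without the libraries numbered 4 (4.45% and 4.09% of all genes), and 5 and 0 with the block (7.19% and 4.97%). The list lay a median of 1.38 above the other libraries in LPS+Dex footprint library 4 and 0.87 in vehicle footprint library 4, on the log2(CPM + 1) scale. TNF, the early inflammatory cytokine, had footprints of 957, 915, 812, 5051 and 712 CPM in the LPS+Dex libraries, against 48.6, 48.3, 41.6, 89.2 and 26.4 CPM in the vehicle libraries. Its mRNA was 814, 780, 687 and 784 CPM with LPS+Dex, against 57.2, 70.0, 52.2 and 36.5 CPM with vehicle. Its TE difference was 1.23 ± 0.79 (SE, adjusted p = 0.480), and 0.52 (adjusted p = 0.141) without the libraries numbered 4. IL1B had 0.13 ± 0.48 (SE, adjusted p = 0.929), IL6 0.14 ± 0.38 (SE, adjusted p = 0.930) and CXCL8, which attracts neutrophils, 0.24 ± 0.66 (SE, adjusted p = 0.899). IL23A, a subunit of interleukin-23, was called higher without the libraries numbered 4, at 1.29 (adjusted p = 0.00227), and had 2.18 ± 0.97 (adjusted p = 0.274) with all. The others called there were TNFSF15, CXCL6 and IL1RN, higher, and EBI3, lower.

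mRNAs of the translation machinery were higher in LPS+Dex cells, and footprints followed. Of 72 tested cytosolic ribosomal protein genes 60 rose and 0 fell in mRNA, with a median log2 change of 0.41, and 49 rose and 0 fell in footprints, with a median of 0.35. In TE 0 of them were called by edgeR with all libraries (2 at an unadjusted p under 0.05, 0 by DESeq2), with a median of -0.06. Without the libraries numbered 4 there were 0 higher and 2 lower (4.45% and 4.09% of all genes), and with the block 0 and 3 (7.19% and 4.97%). The LPS step of their TE had a median of 0.31 and the dexamethasone step one of -0.37, so that the medians nearly cancelled. Ribosomal protein genes have many processed pseudogenes, and reads shared with these are uncertain.

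These mRNAs begin with a TOP tract, a C followed by an unbroken run of pyrimidines. At the annotated starts (RefSeq, GRCh38.p14, the longest run where a gene had several starts) 44 of 57 ribosomal protein genes in the table had a run of at least 5. The starts of 5 TOP mRNAs show it, from 10 bases before the first transcribed base to 20 from it, with the run in capitals (chr12:120201092-120201121, minus strand; chr9:19380217-19380246, minus strand; chr6:73521013-73521042, minus strand; chr19:3985444-3985473, minus strand; chr13:45341164-45341193, minus strand).
RPLP0: ggcgcgaggcCCTTCTCTCgccaggcgtcc
RPS6: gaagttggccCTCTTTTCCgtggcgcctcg
EEF1A1: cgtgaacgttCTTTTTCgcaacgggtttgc
EEF2: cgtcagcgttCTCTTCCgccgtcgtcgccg
TPT1: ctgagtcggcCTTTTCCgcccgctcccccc

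RPLP0 and RPS6, proteins of the large and small subunit, had TE differences of -0.05 ± 0.11 (SE, adjusted p = 0.875) and 0.13 ± 0.16 (SE, adjusted p = 0.753). For the elongation factors EEF1A1 and EEF2 they were 0.26 ± 0.17 (SE, adjusted p = 0.496) and 0.24 ± 0.12 (SE, adjusted p = 0.348), and for TPT1, the translationally controlled tumour protein, -0.03 ± 0.19 (SE, adjusted p = 0.959). EEF2 footprints were 4797, 4531, 4807, 4640 and 4261 CPM in the LPS+Dex libraries, against 3133, 2887, 2797, 3015 and 2577 CPM in the vehicle libraries. Its mRNA was 3475, 3306, 3478 and 3300 CPM with LPS+Dex, against 2741, 2185, 2662 and 2430 CPM with vehicle. Both rose without overlap. Over all genes with a start in the table, those with a run of at least 5 had a median TE difference of 0.02 (742 genes, 8 called higher and 2 lower), and those with a shorter run or none 0.04 (8978 genes, 111 and 56).

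In other lists of translational control the share called higher was near the 1.32% of all genes. Of 49 initiation, eIF2 kinase and mTOR genes 1 (2.04%) was called higher and 0 lower, with a median of -0.03: PDCD4, an inhibitor of the helicase eIF4A, at 0.56 ± 0.15 (SE, adjusted p = 0.0484), a call kept only without LPS+Dex footprint library 4 or vehicle footprint library 3 or 5 (adjusted p up to 0.116). Of 46 ribosome biogenesis genes 39 rose and 1 fell in mRNA, and 1 (2.17%) was called higher and 0 lower in TE: WDR43, a factor of small subunit assembly, at 0.53 ± 0.14 (SE, adjusted p = 0.0497), a call kept only without mRNA LPS+Dex library 1, mRNA vehicle library 1, LPS+Dex footprint library 3 or 4 or vehicle footprint library 2 (adjusted p up to 0.137). ATF4, the stress factor translated through upstream reading frames, had -0.39 ± 0.18 (SE, adjusted p = 0.283). For the iron genes FTH1 and FTL, ferritin chains under control of iron-responsive elements, the differences were 0.11 ± 0.33 (SE, adjusted p = 0.909) and -0.43 ± 0.38 (SE, adjusted p = 0.628), and both can share reads with pseudogenes. Of the panel of 51 well-known genes tested, 44 were called in mRNA (61.5% of all genes) and 2 in TE (1.93%), NFKBIZ and TNFAIP3. There were 7 without the libraries numbered 4 (8.54% of all genes) and 9 with the block (12.2%).

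mRNAs for mitochondrial proteins had TE medians below that of all genes. The 74 nuclear-encoded respiratory chain genes had a median of -0.20 and the 75 mitochondrial ribosomal protein genes -0.18, beside 0.04 for all genes. With all libraries 0 of either list were called by edgeR (11 and 10 at an unadjusted p under 0.05, 0 and 1 by DESeq2). Without the libraries numbered 4 there were 0 higher and 1 lower, and 0 and 3, and with the block 0 and 10, and 0 and 7. The shares of all genes called lower under these settings were 4.09% and 4.97%. MRPL17, of the large mitochondrial subunit, had -0.50 ± 0.15 with all libraries (adjusted p = 0.0924) and -0.51 with the block (adjusted p = 0.0104), and ATP5PF, of ATP synthase, -0.50 ± 0.19 (adjusted p = 0.188) and -0.52 (adjusted p = 0.0107).

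Lists of surface, secretory pathway and lysosomal proteins had TE medians above that of all genes, and footprint library 4 moved with them; its part in the result was not tested beyond leaving it out. The medians were 0.42 for 17 macrophage and monocyte markers, 0.29 for 38 endoplasmic reticulum chaperones and 0.19 for 49 lysosomal genes, and 0.23, 0.04 and 0.05 without the libraries numbered 4. On the log2(CPM + 1) scale these lists lay a median of 1.52, 1.32 and 1.22 above the other libraries in LPS+Dex library 4, and 0.82, 0.73 and 0.62 in vehicle library 4. With all libraries 0 members of these lists were called by edgeR (1, 3 and 2 at an unadjusted p under 0.05, 0, 0 and 0 by DESeq2). Without the libraries numbered 4 there were 3, 3 and 2 called higher and 0 lower, and with the block 6, 9 and 8 higher and 0, 1 and 0 lower. The shares of all genes called higher under these settings were 4.45% and 7.19%, and those called lower 4.09% and 4.97%. CYBB, the catalytic chain of the phagocyte NADPH oxidase, is on none of these lists and was named after its values were seen. Its footprints were 966, 963, 884, 1409 and 940 CPM in the LPS+Dex libraries, against 785, 867, 829, 839 and 857 CPM in the vehicle libraries, a change that was not called (0.31 ± 0.15, adjusted p = 0.104). Its mRNA was 164, 137, 162 and 118 CPM with LPS+Dex, against 178, 162, 296 and 272 CPM with vehicle, with overlap (-0.64 ± 0.19). The TE difference of CYBB was 0.95 ± 0.25 (SE, adjusted p = 0.0484). Its call was kept without mRNA vehicle library 1 or 2 or LPS+Dex footprint library 3 only (adjusted p up to 0.137).

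**Figure D5:**
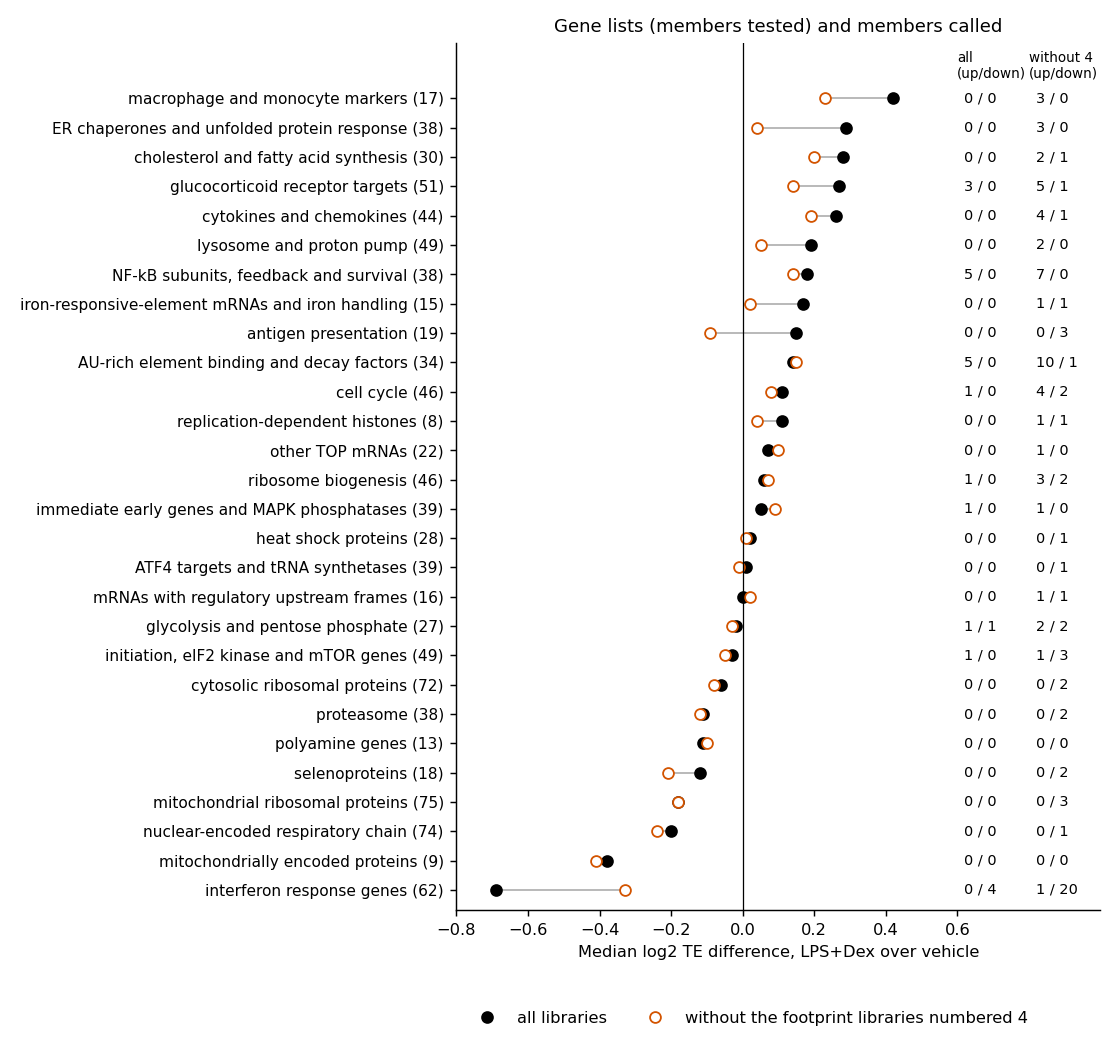
Median log2 TE difference, LPS+Dex over vehicle, of 28 gene lists with the number of members tested, from all libraries (filled) and without the footprint libraries numbered 4 (open). The columns give members called higher and lower. Interferon genes lie lowest with all libraries, at -0.69, and move most, to -0.33, above mitochondrially encoded proteins at -0.41, and most lists lie within 0.3 of 0.

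Genes called in TE had fewer footprints per mRNA in vehicle cells than the median gene. The median log2 ratio in vehicle libraries of footprint CPM to mRNA CPM (0.1 added to both) was -1.19 for the 158 genes called higher (quartiles -2.34 and -0.27) and -1.37 for the 73 called lower (-2.07 and -0.48), and -0.46 for all genes (-1.33 and 0.28). The ratio compares genes on 2 unlike counted regions, since whether exons or coding sequence were counted is not given in the sources used here, and the vehicle libraries also enter the TE difference.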

How the data were processed

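Gene counts were deposited as whole numbers for 15 footprint and 12 poly(A) RNA-seq libraries, with 5 and 4 per treatment. The submitters' processing notes name STAR 2.7.10a, featureCounts 2.0.1, Bowtie2 2.4.5, DESeq2 1.26.0 and the build GRCh38, without their roles. What the sources used here do not give is the annotation, the feature counted, the strand setting and how multiply matching reads were treated.

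From the deposited counts, a model of 6 group means over all 27 libraries was fitted with edgeR 4.0.16 (R 4.3.3; limma 3.58.1), with TMM factors within each assay and the default expression filter (minimum count 10, minimum total 15) applied in each assay. TE was the interaction contrast, tested by the two-sided quasi-likelihood F test with Benjamini-Hochberg adjustment over 11944 genes. mRNA and footprints were fitted separately on the same genes, with DESeq2 1.42.0 and limma voom as alternatives. Levels are CPM computed here. Libraries of one group differed by more than sampling noise, and depth sets the precision of low counts. As a chi-square per gene between libraries of a group, the mRNA vehicle group differed most, at 12.9. The value was 3.50 for mRNA LPS+Dex, 3.91 for vehicle footprints and 4.50 for LPS+Dex footprints. For TFRC, picked as an example, mRNA vehicle libraries 1 and 2 held 105 and 71.8 CPM, and 3 and 4 held 217 and 188 CPM. NCOA7, CYBB and LRP1 were split between these libraries in the same direction, and RPS6 and FTL in the other. NFKBIZ and PLCB2 were not split in this way. Whether this split holds over all genes was not tested.

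Genes named by rule were the 10 largest rises and falls with a mean of 5 CPM or more in both assays that were also called without the footprint libraries numbered 4, the most changed called members of each of 31 lists and of 2 classes, and a panel of 52 genes, of which 51 could be tested. Other genes were named after their values were seen. The members and lists were chosen with earlier results of these data known. In footprints, deviations from the group mean correlated above 0.1 in 15 of 15 pairs of libraries with the same number (0.287 to 0.875), and by that criterion the numbers were taken to pair them. Pairs with different numbers exceeded 0.1 in 35 of 60, and without the libraries numbered 4 in 35 of 36 (median 0.346), and pairs with the same number in 12 of 12 (median 0.403), so the criterion hardly tells shared numbers from others there, and the labels give no pairing. In mRNA this held in 7 of 12 pairs, and between the assays in 2 of 12. An analysis by protein length was not run.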

Additional observations from a re-analysis of the deposited data

Results flagged for a closer look

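Within groups of 4 or 5 libraries, 19 of 92 sets of values had a highest or lowest library apart from the rest by Dixon's criterion. Chance alone meets it in about 1 in 20 independent sets. These sets share the same libraries, so their count cannot be set against that rate. In 18 of the 19 the library was a footprint library numbered 4. In LPS+Dex footprints library 4 was the highest for FBXW7 (23.7 CPM), FSTL3 (1760 CPM), ABCC6 (49.4 CPM), TIAM2 (29.7 CPM), LTBP2 (118 CPM), PLCB2 (137 CPM), TRIM22 (26.2 CPM), HELZ2 (264 CPM) and IRF7 (85.5 CPM). In vehicle footprints it was the highest for ABCC6 (46.8 CPM), PLCB2 (163 CPM), TRIM22 (22.9 CPM), SAMD9L (54.3 CPM), HELZ2 (222 CPM) and IRF7 (89 CPM). For FBXW7 the vehicle library that stood apart was number 5, the highest at 1.90 CPM.

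Library 4 also lay farthest from its group over all genes, at a root mean square log2 distance of 0.66 in LPS+Dex footprints and 0.55 in vehicle footprints. In vehicle footprints it had the fewest detected genes, 13928.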

How the results depend on the processing

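TE calls numbered 231 (158 higher and 73 lower). They were 467 (267 and 200) by DESeq2's Wald test, 2543 (1347 and 1196) by limma voom with quality weights, and 1020 (532 and 488) without the footprint libraries numbered 4. A replicate block gave 1453 (859 and 594) within each assay, 396 (247 and 149) shared by both assays and 973 (602 and 371) in footprints only, the last chosen after seeing the data. Leaving out 1 library at a time gave 118 to 312 calls, 86 to 184 higher and 32 to 128 lower, and 6645 to 7518 in mRNA and 5009 to 5847 in footprints. The count was 118 without mRNA LPS+Dex library 2, 135 without mRNA LPS+Dex library 4, 153 without mRNA vehicle library 3, 125 without mRNA vehicle library 4 and 152 without vehicle footprint library 1. It rose to 244 without mRNA vehicle library 1 and to 261 without mRNA vehicle library 2. At adjusted p under 0.01 the classes held 15 exclusive, 45 buffered and 20 intensified genes. Without the libraries numbered 4 they held 238, 569 and 212, and with the replicate block within each assay 332, 857 and 259. The cause of these shifts was not tested. Under other size factors, expression filters and the 18 compared libraries alone the total stayed within 1.5 times.

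Of the 44 called genes whose values are given, 0 changed sign under any of these settings, 17 lost the call when some single library was left out, and 14 under some other setting. These were CYBB, PDCD4, PFKFB3, WDR43 and ZFP36L1 with DESeq2's size factors, MAP1LC3A with TMM over both assays or at 5 CPM, CYBB, MAP1LC3A, MAP3K8, PDCD4, PFKFB3, RC3H1, TNFAIP3, WDR43 and ZFP36L1 with no filter, CYBB, HELZ2, HERC6, IRF7, MAP3K8, PDCD4, PFKFB3, SAMD9L, TNFAIP3, TRIM22, WDR43 and ZFP36L1 with the 18 compared libraries, and PDCD4 with the shared replicate block. Of 53 named genes not called, 16 were called under some setting other than leaving out 1 library.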

Other observations

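One called gene had 0 footprint counts in every library of a group. MTMR7, of the myotubularin family of lipid phosphatases, had 48, 73, 27, 43 and 28 footprint counts in the LPS+Dex libraries and 0 in each of the 5 vehicle libraries. The LPS libraries held 2, 1, 1, 3 and 0. Set against a floor of 3 counts in the vehicle library with the highest such floor, the LPS+Dex mean of 2.28 CPM was at least 11.1-fold higher. Its mRNA was 7.10, 7.76, 7.26 and 8.23 CPM with LPS+Dex, against 5.03, 7.33, 5.86 and 6.07 CPM with vehicle, overlapping and not called (log2 change 0.32, adjusted p = 0.0887 by edgeR's quasi-likelihood test). The gene was singled out after its values were seen, and its fitted TE difference of 8.35 depends on the prior count and is no bound.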
